A study of Mus musculus with 2 samples.

Results

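The zinc finger protein genes named *Zfp* were examined in livers that lacked *Mettl3* in hepatocytes and in control livers. Members were all genes whose symbol is Zfp followed by a digit and that had an accessible region within 1000 bp of the transcription start site (TSS), the point where transcription of the gene begins. Where a gene had several such regions, the one with the strongest signal was used. This gave 276 genes of the 13162 genes with a promoter region in the table. The rule used the name and the position of a region, not its ratio between the libraries. A further 44 *Zfp* genes were the closest gene only of regions farther away, and 96 of the 416 *Zfp* genes in RefSeq were not the closest gene of any region.

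ATAC-seq, in which the Tn5 transposase cuts and tags DNA that is open in the nucleus, was performed on liver nuclei from 1 *Mettl3* flox/flox library and 1 *Mettl3*-HKO library. *Mettl3* encodes the methyltransferase that places m6A on mRNA. Control mice carried *Mettl3* alleles with exons 2 and 3 flanked by loxP sites, and *Mettl3*-HKO mice (Mettl3 flox/flox Alb-Cre+/-) carried the same alleles together with a Cre recombinase driven by the albumin promoter, which acts in hepatocytes and leaves *Mettl3* intact in the other cells of the liver. Both groups were C57BL/6 mice of 8 weeks on normal chow, and the livers of 4 mice were pooled for each library, so there was no replicate and no test between conditions. Intervals given here are exact binomial (Clopper-Pearson) intervals at 95%, and they cover counting error only. In a bulk liver library, fewer cells of a type cannot be told apart from less open DNA in each cell.

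Most proteins of this name carry C2H2 zinc fingers, short folds held by a zinc ion that each read a few bases of DNA, so that a row of fingers recognises a longer sequence. Many of them also carry a KRAB box, which binds Trim28 and through it brings histone methyltransferases such as Setdb1, and silences retroelements and single genes. The KRAB genes arose by repeated tandem duplication and lie in clusters on a few chromosomes. A smaller set named *Zfp* has other functions, such as mRNA decay, ubiquitin transfer and activation of promoters. Which members carry a KRAB box was not analysed here.

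The promoter sequences of 7 *Zfp* genes are shown first, chosen for the lowest cluster, the highest ratios and *Zfp217*. They come from RefSeq (GRCm38.p6) and run 5′ to 3′ on the strand of the gene, from 250 bases before the TSS to 50 bases after it. The first 4 belong to the chromosome 11 cluster, which had the lowest ratios of any cluster. *Zfp2* lies at chr11:50916127-50916426, *Zfp354b* at chr11:50931586-50931885, *Zfp454* at chr11:50887452-50887751 and *Zfp879* at chr11:50841503-50841802, all on the minus strand. Capitals mark matches to ACTACANTTCCC on either strand, a 12-base word that resembles the site bound by Zfp143.
Zfp2: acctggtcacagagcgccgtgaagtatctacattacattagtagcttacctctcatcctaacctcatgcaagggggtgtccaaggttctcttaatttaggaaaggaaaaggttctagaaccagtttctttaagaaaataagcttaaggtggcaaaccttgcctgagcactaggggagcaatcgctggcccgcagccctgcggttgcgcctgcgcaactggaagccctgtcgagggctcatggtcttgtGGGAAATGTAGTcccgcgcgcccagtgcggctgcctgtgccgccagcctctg
Zfp354b: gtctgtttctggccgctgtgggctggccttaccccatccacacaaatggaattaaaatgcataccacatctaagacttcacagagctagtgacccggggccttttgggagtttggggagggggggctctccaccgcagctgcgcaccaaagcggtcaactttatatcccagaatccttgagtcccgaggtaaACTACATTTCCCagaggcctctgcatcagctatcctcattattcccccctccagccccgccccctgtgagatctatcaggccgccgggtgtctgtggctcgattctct
Zfp454: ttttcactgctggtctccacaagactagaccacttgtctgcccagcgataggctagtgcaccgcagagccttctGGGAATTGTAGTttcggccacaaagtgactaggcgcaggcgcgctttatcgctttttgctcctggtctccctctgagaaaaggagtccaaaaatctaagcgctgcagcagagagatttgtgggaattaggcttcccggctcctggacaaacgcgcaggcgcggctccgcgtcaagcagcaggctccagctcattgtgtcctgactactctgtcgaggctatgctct
Zfp879: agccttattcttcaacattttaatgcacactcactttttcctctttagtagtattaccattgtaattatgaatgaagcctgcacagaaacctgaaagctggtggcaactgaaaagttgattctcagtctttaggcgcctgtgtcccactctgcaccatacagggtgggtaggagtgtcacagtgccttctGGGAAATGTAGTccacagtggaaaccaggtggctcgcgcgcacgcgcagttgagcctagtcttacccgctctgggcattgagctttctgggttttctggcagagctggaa
The next 3 are the promoters of *Zfp984* (chr4:147809739-147810038, minus strand) and *Zfp651* (chr9:121759783-121760082, plus strand), which had the highest ratios, and of *Zfp217* (chr2:170131171-170131470, minus strand), whose protein binds Mettl3. Here capitals mark CpG dinucleotides, of which *Zfp984* had 9, *Zfp651* 46 and *Zfp217* 49.
Zfp984: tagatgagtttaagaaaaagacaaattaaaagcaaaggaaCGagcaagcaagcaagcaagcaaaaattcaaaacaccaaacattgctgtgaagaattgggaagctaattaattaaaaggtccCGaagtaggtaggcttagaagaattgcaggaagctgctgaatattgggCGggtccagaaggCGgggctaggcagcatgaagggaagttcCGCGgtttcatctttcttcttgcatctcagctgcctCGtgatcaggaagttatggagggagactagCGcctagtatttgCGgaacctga
Zfp651: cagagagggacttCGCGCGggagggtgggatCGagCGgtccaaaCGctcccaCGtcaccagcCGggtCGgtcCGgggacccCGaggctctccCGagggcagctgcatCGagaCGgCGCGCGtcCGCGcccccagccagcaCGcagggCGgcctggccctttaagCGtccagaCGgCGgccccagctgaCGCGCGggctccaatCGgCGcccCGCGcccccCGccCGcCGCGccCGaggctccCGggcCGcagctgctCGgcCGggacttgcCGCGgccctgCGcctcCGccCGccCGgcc
Zfp217: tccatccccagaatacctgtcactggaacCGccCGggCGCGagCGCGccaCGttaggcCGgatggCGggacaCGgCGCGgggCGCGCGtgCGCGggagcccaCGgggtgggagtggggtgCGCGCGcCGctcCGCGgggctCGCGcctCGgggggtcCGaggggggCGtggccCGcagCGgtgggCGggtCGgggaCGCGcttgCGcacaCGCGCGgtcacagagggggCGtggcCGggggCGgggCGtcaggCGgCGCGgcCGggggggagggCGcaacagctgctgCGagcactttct

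The libraries held 52826202 (*Mettl3* flox/flox) and 58038305 (*Mettl3*-HKO) reads, and 31.7% and 22.3% of them, respectively, lay in the 69549 regions. Signal scaled to the library total (RPM) was therefore lower in *Mettl3*-HKO livers at most promoters. Ratios are those of the knockout to the control library after adding 1 read to each count. The median log2 ratio was −0.57 over all 13162 genes. The promoter of *Mettl3* itself had 566 and 392 counts, but it lies outside the deleted exons and does not check the genotype. All 8 hepatocyte markers had a promoter region, and their summed signal was 70.6 RPM in *Mettl3* flox/flox and 47.2 RPM in *Mettl3*-HKO livers. Of the 8, 4 lay below and 4 above promoters of the same signal, with a median difference of −0.04, and *Alb* had 480 and 533 counts. Endothelial markers were higher. Of 8, 7 had a promoter region (all but *Pecam1*), 5 were at least 2-fold higher in *Mettl3*-HKO livers (beside 3.84% of all genes, and 8.84% of the genes other than *Zfp* with 0.475 to 3.34 mean RPM), and their sum rose from 2.90 to 6.89 RPM. Of the macrophage, stellate and cholangiocyte markers 2, 3 and 5 of 8 had a promoter region, and of the lymphocyte markers none had. Their sums in control and knockout livers were 1.003 and 1.93 RPM for macrophages, 13.9 and 3.60 RPM for stellate cells, and 15.7 and 12.03 RPM for cholangiocytes. Single markers of a list went different ways. *Reln* (690 and 132 counts) carried the stellate sum, while *Hand2* had 9 and 34 counts and *Col1a1* 37 and 43. Of the cholangiocyte markers *Sox9* had 520 and 397 counts and *Spp1* 13 and 34. The part of a changed cell mixture in the ratios of the *Zfp* genes was not tested.

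*Zfp* promoters were lower in *Mettl3*-HKO livers to about the same degree as other promoters. The median count was 427 in *Mettl3* flox/flox and 278 in *Mettl3*-HKO livers, or 8.10 and 4.81 RPM. The median log2 ratio was −0.63, with quartiles of −0.93 and −0.39, and it ranged from −1.97 (*Zfp941*) to 1.83 (*Zfp651*). This direction depended on the scale, because the median became 0.02 when ratios were centred on the strongest 10% of promoter regions. Each member was therefore also compared with the 1000 promoters of other genes that were nearest in mean RPM. The median difference from these promoters of the same signal was −0.026, and 129 of the 276 members (46.7%) lay above 0, beside 50.3% of all genes. Centring all log2 ratios on another value leaves this difference as it is, whereas the sign of a single log2 ratio near 0 depends on it.

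At least 2-fold lower ratios were found for 57 *Zfp* genes (20.7%), beside 15.9% of all genes with a promoter region. At least 2-fold higher ratios were found for 2 (0.725%), *Zfp984* and *Zfp651*, beside 3.84% of all genes. With ratios centred on the median of all regions, a shift of −0.38, the split was 9 lower and 5 higher, beside 4.61% and 6.44% of all genes. The log2 ratio was above 0 for 18 members (6.52%), beside 14.9% of all genes, and this sign depends on the scaling. The pattern differed with signal. Among the 69 weakest members 14.5% were above 0, beside 35.9% of other genes in their signal range, while among the 69 members next to the strongest 69 the share was 7.25%, beside 2.80%. The spread was also smaller than among other genes. The SD of the log2 ratio was 0.46 for *Zfp* genes and 0.65 for all genes, and within the signal range of the 69 weakest members it was 0.68 for *Zfp* genes and 0.85 for the others. In that range the median signal was 1.91 mean RPM for *Zfp* genes and 1.45 for the others. Neither the shares above 0 nor the SDs there therefore compare equal signal. The counting interval lay wholly below the median of the same signal for 95 members (34.4%) and wholly above it for 60 (21.7%). Among all genes these shares were 29.1% and 28.6%.

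Nearly all *Zfp* promoters were called as peaks in both livers. The authors' peak calls covered 261 members in both libraries, 12 (4.35%) only in *Mettl3* flox/flox and 3 (1.09%) only in *Mettl3*-HKO livers. Over all genes, 6.04% of promoters were called only in *Mettl3* flox/flox and 6.84% only in *Mettl3*-HKO livers. The 3 members called only in *Mettl3*-HKO livers were *Zfp651*, *Zfp105* (30 and 61 counts) and *Zfp944* (47 and 38 counts). Of these, *Zfp944* had fewer counts in the library in which its peak was called. All 15 members called in 1 library were among the 69 weakest by signal, which spanned 0.475 to 3.34 mean RPM.

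**Figure D1:**
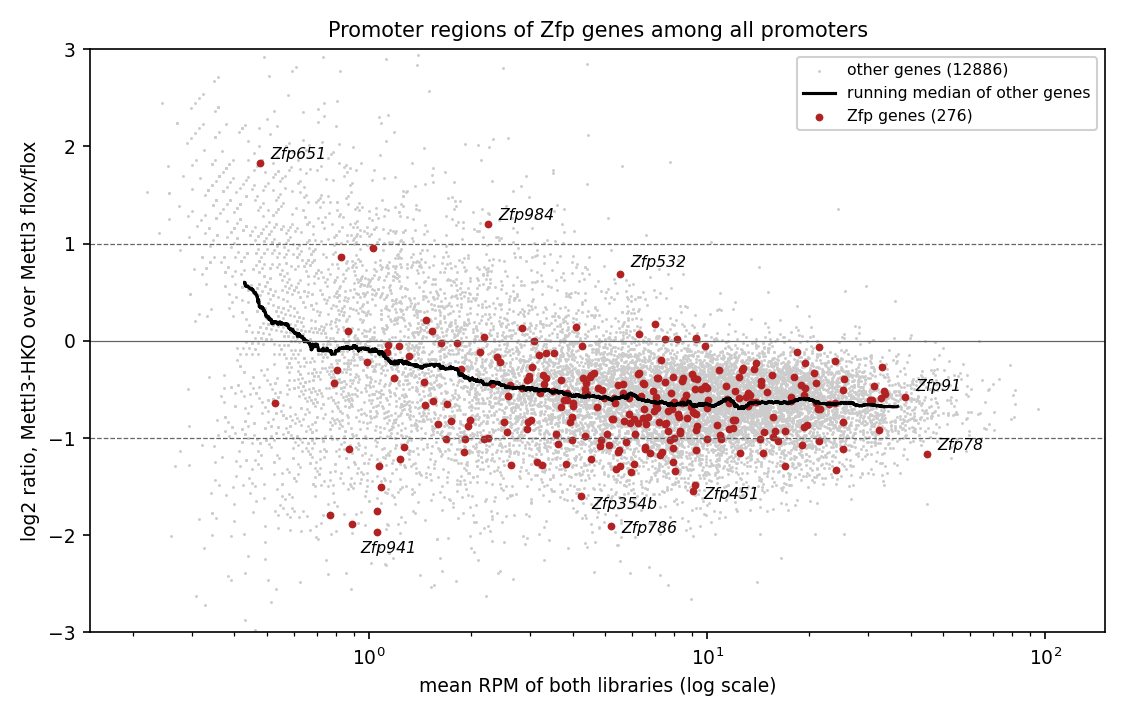
Each point is the strongest promoter region of 1 gene, with its mean RPM over both libraries on a log axis and its log2 ratio of knockout to control livers (red, 276 *Zfp* genes; grey, 12886 other genes, of which 18 lie outside the axes). The black line is the running median of the other genes and dashed lines mark 2-fold. The red points lie on both sides of the line, and 2 of them are above the upper dashed line.

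The lowest ratios among members with at least 100 counts were those of *Zfp941*, *Zfp786*, *Zfp454*, *Zfp354b* and *Zfp451*. *Zfp941* had 88 counts in *Mettl3* flox/flox and 24 in *Mettl3*-HKO livers (log2 ratio −1.97, interval −2.73 to −1.35). *Zfp786* had 433 and 126 counts (log2 ratio −1.91, interval −2.21 to −1.63). It stood alone in its cluster on chromosome 6, where the other members had log2 ratios from −0.80 to −0.33. *Zfp451*, which encodes a ligase that attaches SUMO to proteins, had 715 and 269 counts (log2 ratio −1.54, interval −1.75 to −1.34). The interval treats reads as independent although duplicate reads were kept, and it does not cover differences between mice. Of the 1000 promoters of the same signal, 1.8% were lower than that of *Zfp451*.

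The highest ratios under the same count limit were those of *Zfp984*, *Zfp804a*, *Zfp532*, *Zfp521* and *Zfp518a*. *Zfp984* had 71 and 181 counts (log2 ratio 1.20, interval 0.81 to 1.63). *Zfp804a* had 36 and 78 counts (log2 ratio 0.96, interval 0.39 to 1.59). *Zfp532* had 222 and 395 counts (log2 ratio 0.69, interval 0.45 to 0.94) and was above 99.5% of promoters of the same signal. The intervals of *Zfp521* (71 and 91 counts, −0.24 to 0.69) and *Zfp518a* (348 and 431 counts, −0.03 to 0.38) included 0. *Zfp651*, with 10 and 42 counts, had the highest ratio of all members but too few counts for this limit, and its interval ran from 0.92 to 3.10. The regions of *Zfp984*, *Zfp518a*, *Zfp651* and *Zfp941* touched another gene as well, as did those of 56 members in all, so their signal cannot be given to 1 gene alone.

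The strongest *Zfp* promoters were those of *Zfp78*, *Zfp91*, *Zfp788*, *Zfp36l2* and *Zfp143*, with mean signals from 32.9 to 44.6 RPM. *Zfp78* had 3256 counts in *Mettl3* flox/flox and 1593 in *Mettl3*-HKO livers (log2 ratio −1.17, interval −1.25 to −1.08), and 4.9% of promoters of the same signal were lower. It was the only one of the 5 past 2-fold. *Zfp91* had 2431 and 1786 counts (log2 ratio −0.58) and *Zfp788* 2110 and 1587 (log2 ratio −0.55). Both lay within 0.11 of the median of the same signal.

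Members with known roles were taken by role. The mRNA decay proteins Zfp36, Zfp36l1 and Zfp36l2 bind AU-rich elements of mRNAs with CCCH fingers and bring the deadenylation machinery, and their mRNAs respond rapidly to hormones and inflammation. *Zfp36* had 740 and 660 counts (log2 ratio −0.30, difference 0.34), *Zfp36l1* 739 and 669 (log2 ratio −0.28, difference 0.37) and *Zfp36l2* 2064 and 1590 (log2 ratio −0.51, difference 0.14). The region of *Zfp36* was the last one inside the distance limit, at −999 bp from the TSS given by the authors. Stronger or similar regions of *Zfp36* at −2902 bp (1019 and 750 counts, log2 ratio −0.58) and −1950 bp (714 and 512 counts, log2 ratio −0.61) had ratios near the median of all genes. Just beyond the limit were a region of *Zfp827* at 1041 bp (72 and 98 counts) and one of *Zfp568* at 1044 bp (139 and 144 counts).

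*Zfp217*, whose protein binds Mettl3 and limits m6A in embryonic stem cells, had 801 and 468 counts (log2 ratio −0.91, interval −1.08 to −0.74). Its difference from promoters of the same signal was −0.26, and 22.5% of those promoters were lower. Of the imprint protectors, which keep DNA methylation at imprinted genes in the early embryo, *Zfp445* had 240 and 173 counts and *Zfp57* 61 and 62. Neither differed from promoters of the same signal by more than 0.07. Among repressors of retroelements, *Zfp809*, which silences murine leukaemia virus sequences, had 1049 and 669 counts (difference −0.15), and *Zfp819* had 62 and 31 (log2 ratio −1.11, interval −1.81 to −0.49, difference −1.01). Both belonged to clusters with low ratios. *Zfp568*, a repressor of *Igf2*, and *Zfp932* had no promoter region under the rule.

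The general promoter factors differed in signal. *Zfp143*, an activator that binds many promoters of housekeeping genes, had 1902 and 1730 counts (log2 ratio −0.27, interval −0.37 to −0.18) and was higher than 92.4% of promoters of the same signal. *Zfp263* had 917 and 791 counts (log2 ratio −0.35, difference 0.28). *Zfp384* had 1355 and 953 counts and *Zfp148*, which binds GC-rich promoters, 423 and 286, with differences of −0.02 and −0.10. *Zfp281* had no promoter region under the rule. Among the members with known roles, the regions of *Zfp36*, *Zfp36l1*, *Zfp143*, *Zfp148* and *Zfp593* also touched another gene.

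The proteins of ribosome and protein quality control were split. *Zfp598* encodes the ubiquitin ligase that recognises collided ribosomes, and its promoter had 487 and 541 counts (log2 ratio 0.02, interval −0.16 to 0.20), higher than 98.2% of promoters of the same signal. A weaker second region of *Zfp598*, at 833 bp from the TSS, had 144 and 126 counts (log2 ratio −0.33). *Zfp622*, needed for maturation of the large ribosomal subunit, had 1218 and 1067 counts (difference 0.30), and *Zfp593*, a factor of the same pathway, 177 and 148 (difference 0.11). *Zfp451*, described above, had a difference of −0.89. *Zfp91* differed by 0.08, and the intervals of *Zfp91* and *Zfp593* included the median of the same signal.

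Of the 7 genes linked to fat 4 had a promoter region. *Zfp423*, which commits cells to the adipocyte fate, had 194 and 195 counts (log2 ratio −0.13, difference 0.40), and *Zfp521*, its antagonist, 71 and 91 (difference 0.46). *Zfp69*, a susceptibility gene for diabetes in mice, had 559 and 467 counts (log2 ratio −0.39, difference 0.25). *Zfp30* had 159 and 127 counts and a difference of 0.01, at the median of the same signal. *Zfp516*, *Zfp467* and *Zfp125* of this list, the pluripotency genes *Zfp42*, *Zfp296* and *Zfp462*, and the spindle gene *Zfp207* had no promoter region under the rule.

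**Figure D2:**
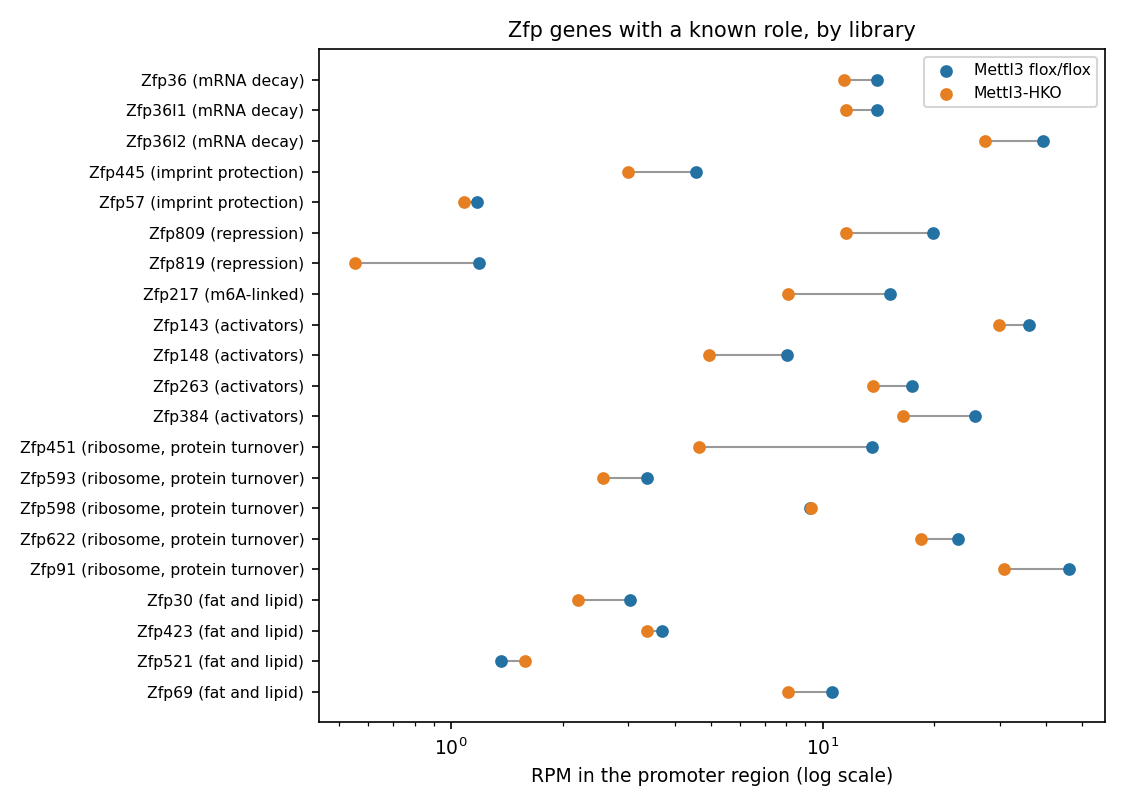
RPM in the promoter region of each *Zfp* gene with a known role (log axis), in the *Mettl3* flox/flox library (blue) and the *Mettl3*-HKO library (orange), joined by a line. The longest lines are those of *Zfp451* (13.6 and 4.65 RPM) and *Zfp819* (1.19 and 0.551 RPM), and in *Zfp598* (9.24 and 9.34 RPM) the points coincide.

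The partners of KRAB proteins were examined from a list of 29 co-repressor genes, of which 25 had a promoter region. Their median log2 ratio was −0.58, near that of all genes, and it became 0.06 when centred on the strongest promoters. *Trim28*, the scaffold bound by the KRAB box, had 911 and 713 counts (log2 ratio −0.49, difference 0.14). At least 2-fold lower were 3 of the 25 (12%), near the 15.9% of all genes, and none was at least 2-fold higher. *Hdac2*, a histone deacetylase, had 2352 and 1001 counts (log2 ratio −1.37, interval −1.48 to −1.26), and 1.4% of promoters of the same signal were lower. *Setdb1*, the histone methyltransferase recruited through Trim28, had 217 and 110 counts (log2 ratio −1.11, interval −1.46 to −0.78), and *Pphln1*, a subunit of the HUSH silencing complex, 701 and 359 (log2 ratio −1.10, interval −1.29 to −0.92). The paralogue *Hdac1*, also named after its values were seen, had 458 and 408 counts and a log2 ratio of −0.30 (interval −0.50 to −0.11), which did not overlap the interval of *Hdac2*.

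The 276 members lay on 20 chromosomes, and 139 of them in no cluster. Runs of at least 4 members whose neighbouring TSSs were at most 500 kb apart formed 19 clusters with 137 members. Of these clusters 9 lay on chromosome 7. Clustered members had a median difference of −0.10 from promoters of the same signal and the other 139 members one of 0.05. Of the clustered members 53 (38.7%) and of the others 76 (54.7%) lay above promoters of the same signal, beside 50.3% of all genes. By log2 ratio the 2-fold lower shares were alike, 21.2% and 20.1%, beside 15.9% of all genes. Relative to promoters of the same signal, 8 clustered members were at least 2-fold below and 0 at least 2-fold above. Of the other members 2 and 4 were, and of all 13162 genes 574 and 644. Of the clustered members 3 (2.19%) had a log2 ratio above 0 and of the others 15 (10.8%), both shares below the 14.9% of all genes. The counting interval lay wholly above promoters of the same signal for 18 clustered members (13.1%) and 42 others (30.2%), beside 28.6% of all genes. It lay wholly below for 52 clustered members (38.0%) and 43 others (30.9%), beside 29.1%.

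Clusters differed from each other. The median difference of 13 clusters was below 0 and that of 6 above it. It was lower than the median difference of the other genes within 1 Mb by more than 0.05 in 13 clusters, higher by more than 0.05 in 1, and within 0.05 of it in 5. Every member lay below promoters of the same signal in 5 clusters, which together held 22 members. No member was 2-fold lower in 7 clusters, which held 4 to 10 members each, beside 15.9% of all genes that were 2-fold lower. Neighbouring members of a cluster were not independent measurements, since duplicated promoters can share sequence.

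**Figure D3:**
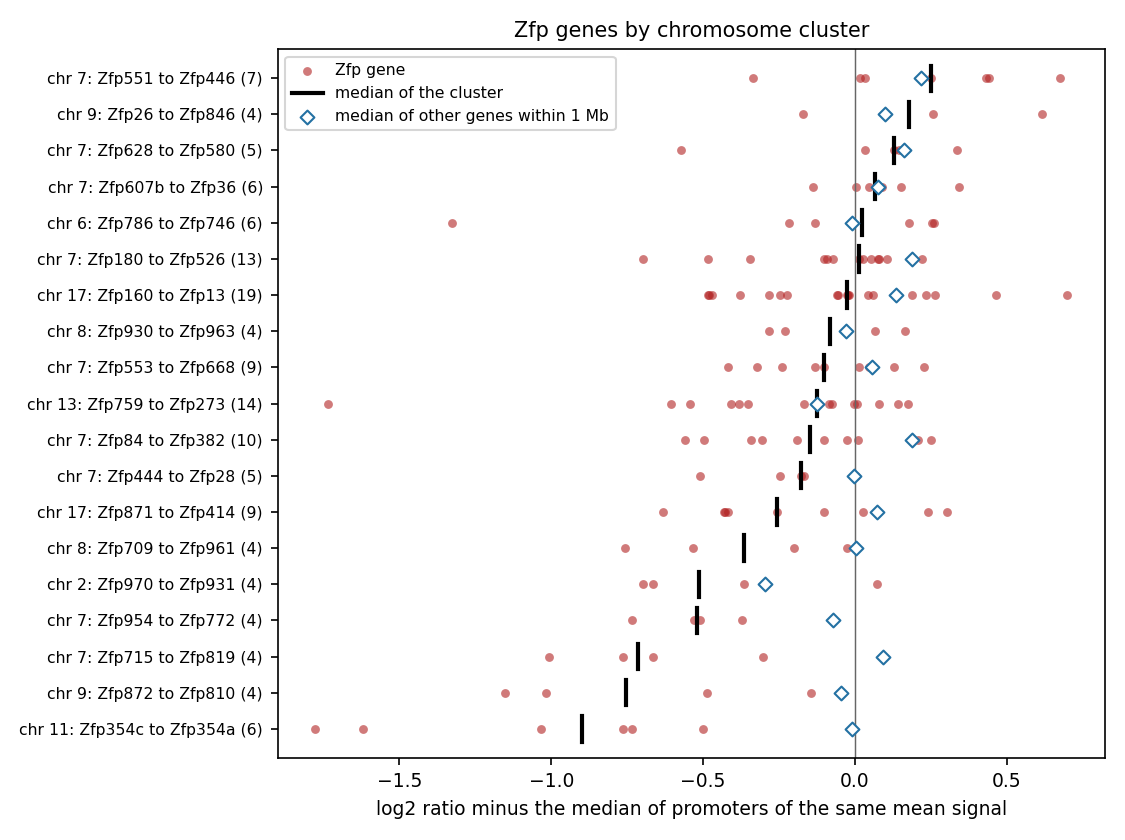
Log2 ratio of each clustered *Zfp* gene minus the median of promoters of the same mean signal (red points), with the median of each cluster (black bar) and of the other genes within 1 Mb (blue diamond). Clusters are named by chromosome and first and last member, with the number of members in brackets, and run from the lowest median difference (−0.90, chromosome 11) to the highest (0.25, chromosome 7). In the lowest 3 clusters all red points lie left of the diamond.

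The lowest cluster spanned 232 kb on chromosome 11 (chr11:50827690-51059294, GRCm38) and held *Zfp354c*, *Zfp879*, *Zfp454*, *Zfp2*, *Zfp354b* and *Zfp354a*. All 6 had fewer counts in *Mettl3*-HKO livers. *Zfp354b* had 335 and 121 counts (log2 ratio −1.60, interval −1.92 to −1.30), *Zfp2* 232 and 107 (log2 ratio −1.25) and *Zfp354a* 133 and 79 (log2 ratio −0.88). The weaker promoters of *Zfp454* (85 and 27 counts) and *Zfp879* (73 and 21 counts) had log2 ratios of −1.75 and −1.89, with intervals up to −1.15 and −1.22. *Zfp354c* had 33 and 23 counts, and its interval (−1.49 to 0.16) included both 0 and the median of the same signal. The median log2 ratio of the cluster was −1.42 and its median difference −0.90. No other gene with a promoter region lay inside the cluster. The 27 other genes within 1 Mb had a median log2 ratio of −0.63 and a median difference of −0.01. Of these neighbours 3 were at least 2-fold lower, the lowest of them *Cdkn2aipnl* (269 and 102 counts, log2 ratio −1.53).

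**Figure D4:**
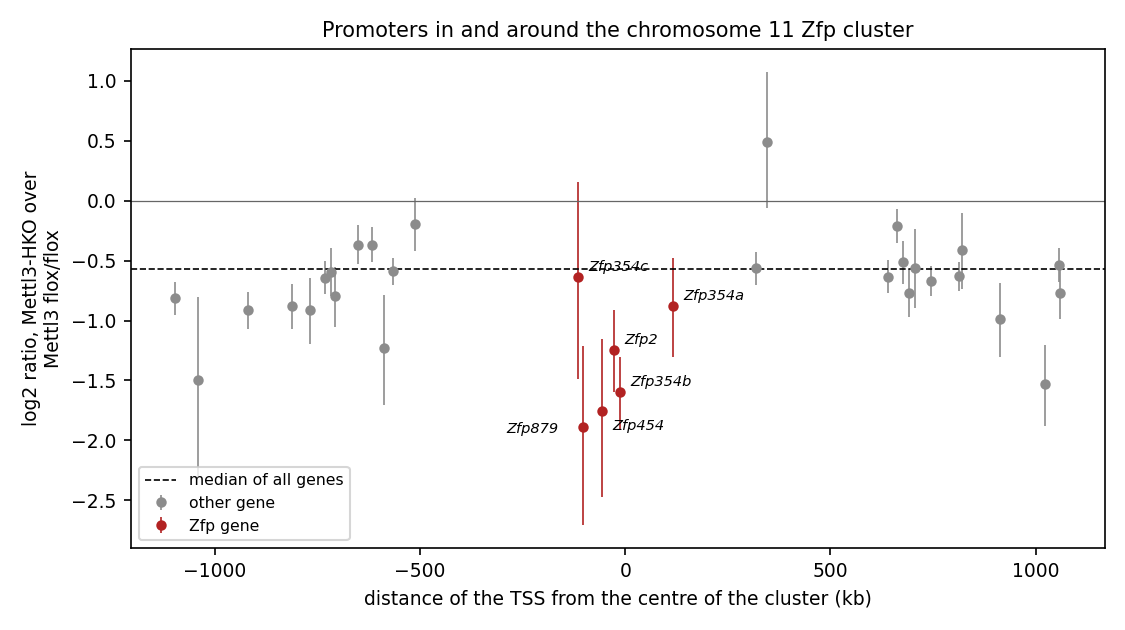
Log2 ratio of every promoter region in and within 1 Mb of the chromosome 11 cluster by distance of the TSS from the centre of the cluster, with 95% binomial intervals (red, 6 *Zfp* genes; grey, 27 other genes). The dashed line is the median of all genes, −0.57. All 6 *Zfp* genes lie below it and most other genes lie close to it.

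The 4 further clusters in which every member lay below promoters of the same signal are described next, so they were chosen by these values. On chromosome 9 (chr9:22188168-22307638) the cluster of *Zfp872* (79 and 35 counts), *Zfp809*, *Zfp599* (90 and 42 counts) and *Zfp810* (366 and 191 counts) had a median difference of −0.75, and the 38 other genes within 1 Mb one of −0.05. *Zfp872* was its lowest member (log2 ratio −1.29, interval −1.93 to −0.72). On chromosome 7 (chr7:43313263-43607225) *Zfp715* had 1276 and 572 counts, *Zfp658* 242 and 109, *Zfp719* 1020 and 586 and *Zfp819* 62 and 31. The median difference there was −0.71 beside 0.09 for 11 neighbours. *Zfp715* was a strong promoter with a log2 ratio of −1.29 (interval −1.44 to −1.15).

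Another cluster of chromosome 7 (chr7:7121488-7209998) held *Zfp954* (910 and 448 counts), *Zfp773* (169 and 104 counts), *Zfp418* (404 and 178 counts) and *Zfp772* (258 and 135 counts). Its median difference was −0.52, that of 9 neighbours −0.07, and *Zfp418* was the lowest (log2 ratio −1.31, interval −1.58 to −1.06). On chromosome 8 (chr8:71882019-71951071) *Zfp709*, with 452 and 194 counts (log2 ratio −1.35, interval −1.61 to −1.11), *Zfp882* (493 and 243 counts), *Zfp961* (486 and 298 counts) and *Zfp617* (858 and 591 counts) had a median difference of −0.37 beside 0.004 for 34 neighbours. The range within this cluster was wide, since *Zfp617* lay only 0.03 below promoters of the same signal.

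In the cluster of chromosome 2 (chr2:177464846-178078455) the genes between the *Zfp* genes were low as well. *Zfp971* had 606 and 262 counts (log2 ratio −1.34), *Zfp931* 452 and 206 (log2 ratio −1.27) and *Zfp970* 425 and 239 (log2 ratio −0.96), whereas *Zfp972*, with 199 and 161 counts, lay 0.07 above promoters of the same signal. A weaker second region of *Zfp971*, at 661 bp from the TSS, had 75 and 73 counts (log2 ratio −0.17). For the whole cluster the values were as follows. The median difference was −0.51, and the 7 other genes within 1 Mb had one of −0.29. Of the 4 promoters in this cluster 3 share long runs of sequence with another promoter, so the reads counted for them are uncertain, while that of *Zfp972* shared 4.98% of its 20-base words. Of the words of the *Zfp970* promoter, 88.6% were found in the promoter of *Zfp966*, and of those of *Zfp971* 58.4% in that of *Zfp970*. Of the 229 *Zfp* promoters with a RefSeq sequence, 12 shared at least 50% of their words with 1 promoter elsewhere, and 135 shared none. The differences of the 12 from promoters of the same signal ran from −0.70 (*Zfp971*) to 1.64 (*Zfp984*).

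The highest clusters lay on chromosomes 7 and 9. In the cluster from *Zfp551* to *Zfp446* (chr7:12422751-12977848) the median log2 ratio of 7 members was −0.35 and the median difference 0.25. *Zfp128* had 393 and 438 counts (log2 ratio 0.02, interval −0.18 to 0.22) and *Zfp606*, the lowest, 763 and 427 (log2 ratio −0.97). The 14 other genes within 1 Mb had a median difference of 0.22, close to that of the cluster. On chromosome 9 (chr9:20460160-20581325) *Zfp846* had 529 and 561 counts and lay above 97.1% of promoters of the same signal, while *Zfp266* in the same cluster had 811 and 508. This cluster of 4, with a median difference of 0.18, lay on the same chromosome as the low cluster of *Zfp809*.

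The large clusters had median differences near 0 or slightly below it. The largest, with 19 members from *Zfp160* to *Zfp13* on chromosome 17 (chr17:21008941-23599487), had a median log2 ratio of −0.65 and a median difference of −0.03, beside 0.14 for the 32 other genes within 1 Mb. It ranged from *Zfp160* (669 and 337 counts, log2 ratio −1.12) to *Zfp677* (205 and 249 counts, log2 ratio 0.14). The 14 members on chromosome 13 (chr13:67128228-67813740) had a median difference of −0.13, the same as their 13 neighbours, and included *Zfp459* (62 and 19 counts, log2 ratio −1.79, interval −2.67 to −1.08) and, at the other end, *Zfp429* (264 and 215 counts, log2 ratio −0.43). The 13 members from *Zfp180* to *Zfp526* on chromosome 7 had a median difference of 0.01, beside 0.19 for 25 neighbours. Its extremes were *Zfp109* (118 and 64 counts, log2 ratio −1.01) and *Zfp61* (72 and 71 counts, log2 ratio −0.16).

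In the remaining clusters medians lay between −0.25 and 0.13 of promoters of the same signal. The lowest and highest members were *Zfp472* (343 and 185 counts) and *Zfp799* (116 and 118) in the other cluster of chromosome 17, *Zfp930* (529 and 305) and *Zfp963* (1158 and 926) on chromosome 8, and *Zfp786* and *Zfp956* (271 and 237) on chromosome 6. On chromosome 7 the pairs were *Zfp78* and *Zfp583* (87 and 71 counts), *Zfp579* (108 and 65) and *Zfp628* (633 and 565), *Zfp60* (240 and 164) and *Zfp974* (65 and 69), *Zfp420* (157 and 86) and *Zfp383* (267 and 227), and *Zfp764* (201 and 117) and *Zfp747* (267 and 230). In each pair the first count is that of *Mettl3* flox/flox livers.

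*Zfp* promoters also differed from others in sequence. RefSeq promoters were found for 229 members and 7739 other genes. The 300 bases had a median of 15 CpG dinucleotides in *Zfp* genes and 22 in the others, and a GC content of 55% and 61.7%. Clustered members had 12 CpGs and the other members 17.5. Among members the difference from promoters of the same signal was weakly related to CpG number (Spearman's rho 0.14 over 229 promoters, which share both libraries, and 0.02 over the other genes). In groups by CpG number the median difference of *Zfp* genes was −0.003 (2 to 9 CpGs), −0.13 (10 to 15), −0.03 (16 to 21) and 0.03 (22 to 59). Other genes with the same CpG numbers had 0.02, −0.06, −0.01 and 0.02.

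**Figure D5:**
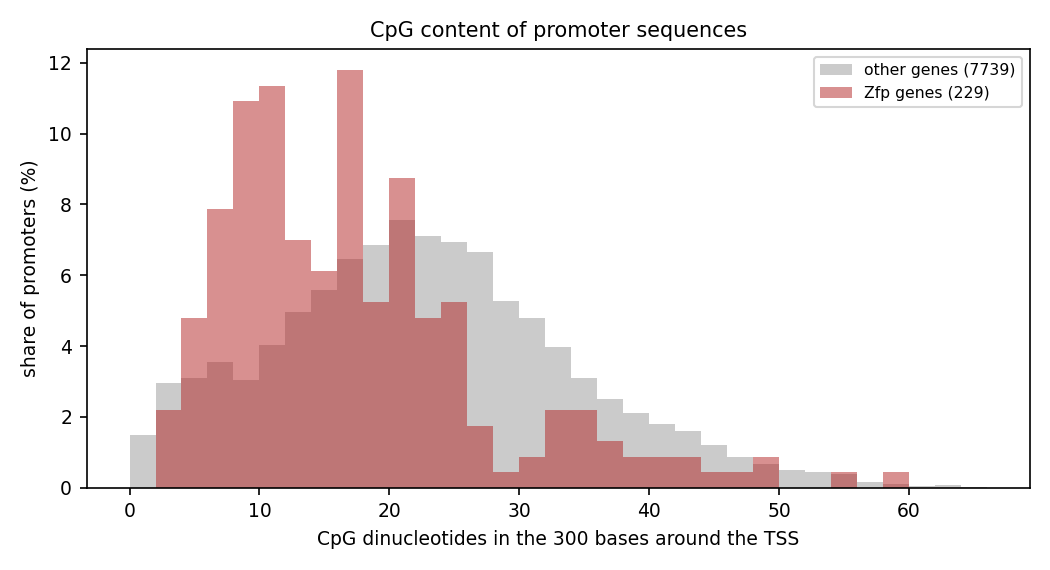
Number of CpG dinucleotides in the 300 bases around the TSS (x axis) and the share of promoters in percent (y axis) for 229 *Zfp* genes (red) and 7739 other genes (grey). The median is 15 in *Zfp* genes and 22 in the others.

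The word ACTACANTTCCC, searched on both strands, was much more common in *Zfp* promoters than elsewhere. It was found in 38 of 229 *Zfp* promoters (16.6%) and in 2.32% of all 7968 promoters. Among clustered members, including the chromosome 11 genes from which the word was read, 25.2% had it, and among the others 6.60%. All clustered members with it lay on chromosomes 7, 11 and 13. It was found in no clustered member of chromosome 17, and in none of the low clusters of *Zfp872*, *Zfp715*, *Zfp418* and *Zfp709*. The word was chosen after the sequences printed above had been read, and a match can hold the shorter word ACTACAA, the core of the Zfp143 site, which was in 7.42% of *Zfp* promoters and 4.59% of all. The word was read from promoters of the chromosome 11 cluster. With the genes of that cluster left out, 34 of 225 *Zfp* promoters (15.1%) had it, with a median difference of −0.09, and members without it had −0.02. The 147 other genes with it had −0.07. Besides the 4 genes of the chromosome 11 cluster, members with the word, named after their values were seen, included *Zfp85* (588 and 271 counts, log2 ratio −1.25), *Zfp738* (397 and 200 counts, log2 ratio −1.12) and *Zfp692* (138 and 68 counts, log2 ratio −1.15), and also *Zfp933* (323 and 373 counts, log2 ratio 0.07) and *Zfp128*, so the word was found at both ends. Outside the chromosome 11 cluster 5 of the 34 were at least 2-fold lower, near the 15.9% of all genes. A match is a description and not a binding site.

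Of the other words searched on both strands, GGGCGG, the core bound by SP factors, was in 42.8% of *Zfp* promoters and 67.4% of all, and CCAAT in 48.0% and 38.6%. CCGGAAG (ETS factors) was in 21.8% and 17.9%, TGCGCA (NRF1) in 13.1% and 14.7%, AAGATGG (YY1) in 8.73% and 6.97%, and TGACGT (CRE) in 11.4% and 12.1%. CACGTG was in 7.42% and 10.5%, TATAAA in 5.24% and 6.75%, GTTAAT (HNF1) in 3.49% and 4.22%, and TGAGTCA (AP-1) in 2.18% and 3.36%.

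Several members had more than 1 promoter region. This was so for 21 genes, the strongest of which were *Zfp703*, *Zfp619* and *Zfp444*. In *Zfp703* the main region had 1523 and 819 counts and the second 286 and 137, with log2 ratios of −1.03 and −1.19. *Zfp619* (1344 and 811, then 141 and 87) had log2 ratios of −0.86 and −0.83, and *Zfp444* (1130 and 811, then 201 and 118) of −0.61 and −0.90. In 15 of the 21 genes the weaker region had the higher ratio, by a median of 0.37 over all 21, and in 7 the signs were opposite. Weaker promoters had higher ratios in general, since the median log2 ratio of other genes was −0.29 in the signal range of the 69 weakest members and −0.64 in that of the 69 strongest. The farthest apart, chosen after its values were seen, was *Zfp704*. Its main region had 484 and 543 counts (log2 ratio 0.03), while a second region at −850 bp from the TSS had 20 and 131 (log2 ratio 2.52).

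Regions more than 1 kb from the TSS behaved differently from the promoters. The 286 such regions closest to a *Zfp* gene had a median log2 ratio of −0.20, and all 55162 had −0.27. At least 2-fold higher in *Mettl3*-HKO livers were 60 (21.0%), beside 15.6% of all such regions, and at least 2-fold lower 38 (13.3%), beside 18.8%. The following were chosen after their values were seen. A region in intron 5 of *Zfp568* had 26 and 175 counts (log2 ratio 2.57, interval 2.02 to 3.27). A region at −11424 bp from the TSS of *Zfp51* had 70 and 360 counts (log2 ratio 2.21, interval 1.85 to 2.62), and one at 12928 bp from that of *Zfp277* had 54 and 263 (log2 ratio 2.13, interval 1.72 to 2.60). A pair of regions at −46002 and −49322 bp from the TSS of *Zfp36l2*, inside an intron of *Thada*, had 13 and 114 and 32 and 142 counts. In the other direction, a region at −7044 bp from the TSS of *Zfp821* had 72 and 12 counts (log2 ratio −2.63, interval −3.74 to −1.83). The promoters of *Zfp51* (1829 and 927 counts, log2 ratio −1.12) and *Zfp36l2* (log2 ratio −0.51) were lower, and *Zfp568*, *Zfp277* and *Zfp821* had no promoter region under the rule.

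Other gene families defined by name gave a scale for these values. Among zinc finger families, 14 *Zscan* and *Zkscan* genes, which share C2H2 fingers and often the KRAB box with *Zfp* genes, had a median log2 ratio of −0.79 and a median difference of −0.26, and 5 of them were at least 2-fold lower, beside 15.9% of all genes. The 32 *Zbtb* genes had a median difference of 0.03, the 12 *Zc3h* genes 0.07 and the 12 *Klf* genes 0.15. Above promoters of the same signal were 11 of the 12 *Klf* genes, beside 50.3% of all genes. Unrelated families spanned a narrower range, from −0.09 for 36 mitochondrial carriers (*Slc25a*) and −0.03 for 60 mitochondrial ribosomal proteins to 0.12 for 50 *Rab* GTPases. The value of all *Zfp* genes, −0.026, lay inside this range.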

How the data were processed

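Liver ATAC-seq reads of 1 pooled library per group had been trimmed by the authors with skewer (V0.2.2), aligned to GRCm38 with BWA (V0.7.12), and kept at a mapping quality of at least 13 when properly paired and not mitochondrial. Peaks had been called per library with MACS2, with duplicate reads kept, so reads are not independent molecules. The deposited table holds read counts per merged region, RPM values with 1 read added, a fold enrichment ratio over the genome per library, and the authors' log2 fold change. The log2 column is their comparison and was not used. Of 74821 rows, 5272 repeated a region and were dropped.

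Log2 ratios were computed from the deposited counts and library totals, and the depth is given as counts beside each value. Each promoter was set beside the 1000 promoters of other genes nearest in mean RPM. Scripts, tested on simulated counts, ran in Python 3.11.15 (scipy 1.17.1, numpy 2.4.6, pandas 2.3.3), and figures were drawn with matplotlib 3.10.9. Named genes were the 5 lowest, highest and strongest members (at least 100 counts for the lowest and highest), the members with known roles, the lowest and highest member of each cluster, and the 3 strongest genes with several regions. Most others are said to have been chosen after their values were seen, or are members of a described cluster or peak class. Co-repressors past 2-fold, single cell type markers and the lowest neighbour of the chromosome 11 cluster were also named by their values. The members and lists were chosen with earlier results of these data known. Promoter sequences are from RefSeq (GRCm38.p6). Alternatives changed the scaling, reads added, distance, region choice, fold, number of promoters compared and cluster gap.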

Additional observations from a re-analysis of the deposited data

How the results depend on the processing

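Of 70 alternative values for the main results, 52 moved by less than the spread used for comparison and 18 moved by more, as did 53 values of single clusters (37 did not) and 174 of single genes (442 did not). The scale of the libraries moved most, and the medians of the *Zfp* genes and of the co-repressors changed sign with it. Centred on all regions, the *Zfp* median was −0.25, with 9 members at least 2-fold lower and 5 higher, and the co-repressor median was −0.20. Centred on the strongest 10% of promoter regions, these were 0.018, 5, 5 and 0.064, and the median of the chromosome 11 cluster was −0.78. Scaled to the counts in regions, they were −0.12, 7, 5 and −0.071. With regions up to 2 kb from the TSS, 4 members were at least 2-fold higher. A limit of 1.5-fold gave 152 lower and 5 higher members, and one of 3-fold gave 6 and 1. Gaps up to 200 kb and 1 Mb gave 17 and 20 clusters. Assigning symbols by RefSeq position, leaving out regions that touch another gene and leaving out the chromosome 11 cluster from the counts of the added word were chosen after seeing the data. Matching RefSeq symbols by Ensembl ID was not run, because the table used holds no such IDs. No paired analysis was possible because each group had 1 pooled library. Differences between mice could not be measured, and weak promoters such as *Zfp651* and *Zfp354c* have wide counting intervals.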

Other observations

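The position of the regions within genes gave a further description of the *Zfp* promoters. The centre of the region lay in the 5′UTR for 82 members, between genes for 82, in the first intron for 59 and in the first exon for 40. The median difference from promoters of the same signal was 0.02, 0.004, −0.10 and −0.08, respectively. Regions farther than 1 kb that lay inside their own *Zfp* gene numbered 108, with a median log2 ratio of −0.09, beside −0.32 for 13414 such regions over all genes. The 105 regions near *Zfp* genes without a promoter region had −0.26.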
